A study of Homo sapiens with 10 samples.

Results

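The genes analysed here encode the protein subunits of the cytosolic ribosome. They were taken as the protein-coding genes of GENCODE release 44 whose symbol is RPL or RPS followed by a number, with the forms RPLP0 to RPLP2 and the named paralogs included and without the RPS6K kinases and chromosome Y. The rule gave 84 genes of 19970 protein-coding genes, 53 of the large subunit and 31 of the small subunit. They lie on 21 chromosomes, with 12 on chromosome 19. Acetylation of histone H3 at lysine 27 (H3K27ac) and lysine 18 (H3K18ac) was profiled by ChIP-Seq in the castration-resistant prostate adenocarcinoma cell line C4-2B and in C4-2BER, its derivative made resistant by continuous exposure to enzalutamide, a hormone therapy drug for prostate cancer, and described by the study as NE-like. There were 8 ChIP libraries, 2 for each mark in each line, and every line also had 1 input library. The authors merged the replicates before calling broad peaks, so a gene has 1 pooled value per mark and line. Without replicate error, the lines are compared by description only and no p-value is given. The depth of the libraries is unknown, and C4-2BER is a single derived line, so that drug exposure, resistance and line cannot be told apart.

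A ribosome joins a small subunit, which reads the mRNA, to a large subunit, which forms the peptide bonds. Its proteins are needed in equal amounts and are made in every growing cell, so their genes are widely used as housekeeping references. Most human ribosomal protein mRNAs begin with a C followed by a run of pyrimidines (the 5′ terminal oligopyrimidine, or TOP, motif), through which mTOR signalling and LARP1 control their translation. Their introns often hold small nucleolar RNAs (snoRNAs), which guide the modification of ribosomal RNA, and here 27 of the 84 genes held 58 annotated snoRNAs, up to 5 in a gene.

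The start sites of the genes on which the results turn are shown here, because the start is the point from which each peak was measured and the tract around it is the feature most ribosomal protein genes share. The sequences are from RefSeq (GRCh38.p14), 35 bases before the start and 15 from it, 5′ to 3′ on the gene's strand. Capitals mark the first transcribed base and, where that base is a pyrimidine, the unbroken run of C and T through it. RPS6, RPS14, RPS19 and RPL27 had the calls of decrease in C4-2BER, RPL24, RPL36A, RPS27A and RPL36 were among the largest rises, and RPL7L1, RPL10L, RPL22L1 and RPS27L are paralogs.
RPS6: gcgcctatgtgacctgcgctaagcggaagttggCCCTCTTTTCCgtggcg
RPS14: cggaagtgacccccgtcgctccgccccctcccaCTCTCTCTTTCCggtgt
RPS19: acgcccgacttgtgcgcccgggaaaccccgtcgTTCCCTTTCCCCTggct
RPL27: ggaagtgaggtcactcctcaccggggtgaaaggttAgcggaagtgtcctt
RPL24: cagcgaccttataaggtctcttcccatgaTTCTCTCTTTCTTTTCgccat
RPL36A: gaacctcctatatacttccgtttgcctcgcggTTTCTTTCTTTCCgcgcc
RPS27A: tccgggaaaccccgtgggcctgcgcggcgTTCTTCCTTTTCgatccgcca
RPL36: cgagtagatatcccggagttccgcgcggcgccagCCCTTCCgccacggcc
RPL7L1: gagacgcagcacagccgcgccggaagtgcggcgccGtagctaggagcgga
RPL10L: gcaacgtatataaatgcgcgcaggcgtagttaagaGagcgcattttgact
RPL22L1: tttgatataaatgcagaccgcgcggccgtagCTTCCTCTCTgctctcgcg
RPS27L: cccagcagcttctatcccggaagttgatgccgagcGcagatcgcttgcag

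A RefSeq window of 300 bases, from 250 before to 50 after the start, was given for 67 of the 84 genes. Those without an entry included RPL5, RPL39L, RPL37, RPS20, RPL7, RPL30, RPL8, RPL3L, RPS2, RPS15A, RPL23A and RPL23. For 64 genes the RefSeq start was the same base as the start of the GENCODE canonical transcript (the transcription start site, TSS). Of these 64, 50 began with C (78.1%) and 46 began with C in a run of at least 5 pyrimidines counted from the first base (71.9%). Among 14478 other coding genes with the same agreement of starts, 10.2% began with C and 4.38% had such a run. RPS6 and RPS14, shown above, carry the tract, whereas RPL27 begins with A and the paralogs RPL7L1, RPL10L and RPS27L begin with G.

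Of 10 short motifs searched on both strands of the windows, CTCTTTCC, itself a pyrimidine tract that overlaps the start in some genes, was in 11 of 67 ribosomal windows (16.4%) and in 3.00% of the 15247 other windows. CTCGCGAG was in 6 windows, among them RPS6 and RPS19 (8.96% against 1.63%), and AAGATGGCG, the core of a YY1 site, in 6 (8.96% against 2.96%), of which 2 had it on the strand of the gene (2.99% against 2.36%). The ETS-type motif CCGGAAGT was in 11, RPS6 and RPS14 included (16.4% against 6.39%). TATAAA (10.4% against 9.42%), CCAAT (31.3% against 36.6%), GGGCGG (56.7% against 61.8%), CACGTG (5.97% against 8.87%), CGCATGCG (1.49% against 2.95%) and AGAACA, a half-site of steroid receptor elements (11.9% against 10.5%), had shares closer to those of the other windows. A match describes the letters of the window only.

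Nearly all ribosomal protein genes carried both marks at the start site in both cell lines. A gene was counted as marked where a peak lay within 1000 bp of the canonical TSS. H3K27ac was present at 82 genes of C4-2BER and 81 genes of C4-2B, where 69.7% and 69.3% of all coding genes had such a peak. H3K18ac was present at all 84 genes in each line, against 81.3% (C4-2BER) and 84.0% (C4-2B) of all coding genes. The H3K18ac lists were the longer ones, with 197948 and 198451 peaks in C4-2BER and C4-2B, against 72971 and 68034 for H3K27ac.

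The genes without H3K27ac were paralogs of ribosomal proteins. RPL3L, the striated-muscle paralog of RPL3, had no H3K27ac peak in either line. Its H3K18ac fold enrichment, the authors' ratio of ChIP signal to local background averaged over a broad peak, was 2.23 (C4-2BER) and 2.72 (C4-2B). The nearest H3K27ac peak lay 1439 bp from the TSS in C4-2BER and 3176 bp in C4-2B. RPL39L, a testis-enriched paralog of RPL39, also lacked H3K27ac in both lines and had H3K18ac folds of 2.06 and 2.36. RPL10L, the retrogene of RPL10 known from the testis, had an H3K27ac peak of 4.36-fold and 1104 bp in C4-2BER and none in C4-2B, where the nearest lay at 21051 bp. Its H3K18ac folds were 3.53 (C4-2BER) and 3.97 (C4-2B).

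The other 5 paralogs had both marks in both lines. RPL36AL had H3K27ac folds of 18.2 (C4-2BER) and 29.7 (C4-2B), the second highest of all 84 in C4-2B. RPS27L, a p53 target gene, had 14.9 and 28.2. RPL22L1 had 11.0 and 17.3, RPL26L1 11.0 and 16.2, and RPL7L1, whose product acts in ribosome assembly, 10.4 and 12.3. The H3K18ac folds of these 5 were lower in C4-2BER in each case, from 4.12 to 7.50 there and from 5.54 to 11.2 in C4-2B. All 76 main genes, the family without its 8 paralogs, had a peak of both marks in both lines.

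By fold, the H3K27ac peaks of the ribosomal protein genes stood a little below those of other genes and the H3K18ac peaks a little above. The fold is an average over the peak, so it does not give the height of a summit where widths differ. The median highest H3K27ac fold was 11.6 in C4-2BER (n = 82 genes) against 12.4 for the other coding genes with a peak, and 16.3 in C4-2B (n = 81) against 18.2. For H3K18ac the medians were 5.99 against 5.58 in C4-2BER and 7.40 against 7.00 in C4-2B (n = 84). Other genes of similar length with a peak had H3K27ac medians of 11.8 and 16.4 (n = 1996 and 2012), nearer to the ribosomal values. Their H3K18ac medians were 5.28 and 6.08 (n = 2431 and 2603). Mitochondrial ribosomal protein genes (n = 78), the nuclear genes for the separate ribosome of mitochondria, had H3K27ac medians of 12.6 and 19.2, proteasome subunits (n = 37) 12.7 and 19.5, and genes of respiratory complex I (n = 46) 13.2 and 20.3. For H3K18ac these families had 5.56 and 7.39, 5.62 and 7.42 (n = 38 and 39), and 6.01 and 8.17. Complex I genes thus matched or exceeded the ribosomal H3K18ac medians in both lines, and the other families came near them in C4-2B. The interquartile range of the ribosomal genes was 10.1 to 13.7 in C4-2BER and 13.3 to 19.6 in C4-2B for H3K27ac. A median ribosomal peak stood at percentile 88.9 by fold among all H3K27ac peaks of C4-2BER, promoter or not, and at 95.7 for H3K18ac. The other coding genes with a peak stood at 90.4 and 94.6, so a high rank was shared by promoter peaks in general.

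Levels within the family were spread unevenly, as the plot of folds by gene shows. RPL7 had the highest H3K27ac folds in both lines, 20.5 in C4-2BER and 30.3 in C4-2B. RPL17 (20.3) was second in C4-2BER, and RPL36AL (29.7) and RPL15 (29.4) in C4-2B. At the low end, RPL27 was the lowest of the main genes in C4-2BER with 6.52 and had 9.20 in C4-2B. RPL35A, which had 6.75 in C4-2BER, was the lowest in C4-2B with 6.68, ahead of RPL29 (7.74) and RPL36A (7.84). RPS19, the gene most often mutated in Diamond-Blackfan anaemia, had the highest H3K18ac in both lines, 11.3 and 14.8, with H3K27ac of 8.35 and 17.2. RPL17 (8.94) and RPL15 (8.89) came next for H3K18ac in C4-2BER, and RPL15 (13.0) and RPL27A (12.9) in C4-2B. RPL35A was also the lowest main gene for H3K18ac, with 3.28 and 3.07.

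**Figure D1:**
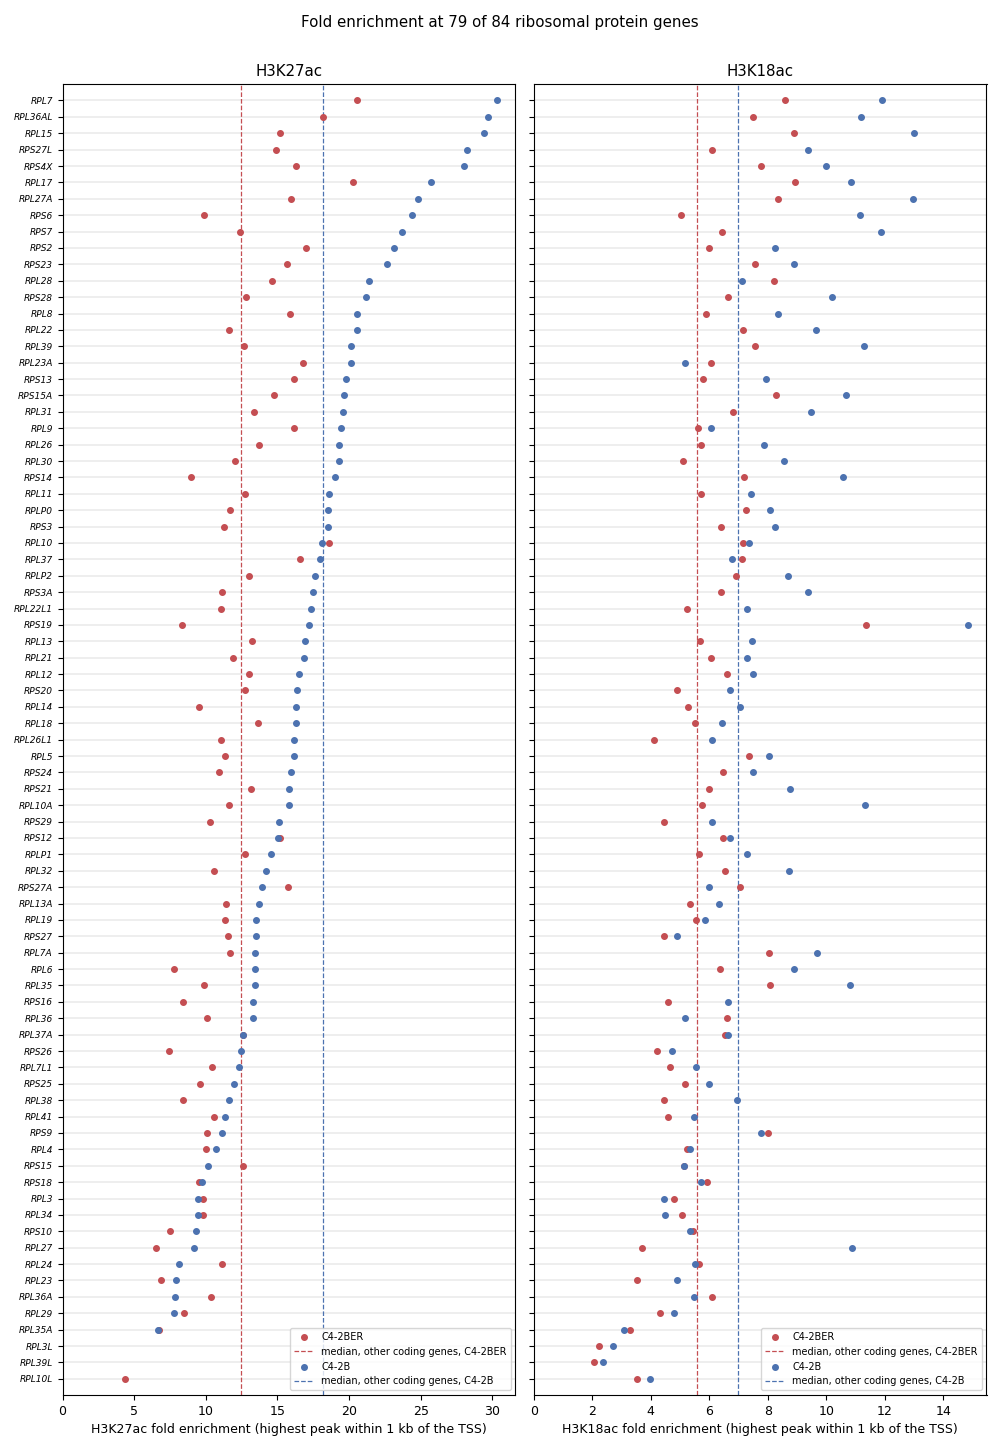
Fold enrichment of H3K27ac (left) and H3K18ac (right) at 79 of the 84 ribosomal protein genes, 1 point per gene and cell line (C4-2BER red, C4-2B blue), with genes ordered by H3K27ac in C4-2B and dashed lines at the median of the other coding genes. Values are pooled peak lists without error bars. H3K27ac runs from 4.36 to 20.5 in C4-2BER and from 6.68 to 30.3 in C4-2B, and RPS19 stands apart on the right panel at 11.3 and 14.8.

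Large and small subunit genes had H3K27ac medians of 11.7 (n = 51) and 11.5 (n = 31) in C4-2BER and 16.2 (n = 50) and 16.4 (n = 31) in C4-2B. RPL5 and RPL11, which bind 5S RNA and hold back MDM2 in the p53 checkpoint, had H3K27ac folds of 11.3 and 12.7 in C4-2BER and of 16.1 and 18.6 in C4-2B. The 20 genes listed for Diamond-Blackfan anaemia had medians of 11.9 and 16.3, and the 64 genes not on that list 11.6 and 16.2. Genes with a C and a pyrimidine run at the start (n = 46) had H3K27ac medians of 11.5 and 16.1, and the 18 with another start 12.0 and 15.8. RPL10L, among these 18, had no H3K27ac peak in C4-2B and is not in the C4-2B median.

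Ribosomal protein genes differed from other genes more in the width of their H3K27ac peaks. The median width was 5716 bp in C4-2BER and 4849 bp in C4-2B, 2.03 and 2.06 times the median of the other coding genes (2821 and 2352 bp). Of the genes with a peak, 68 of 82 in C4-2BER and 69 of 81 in C4-2B were wider than that median, and 22 and 29 were wider than its 90th percentile (9726 and 7324.3 bp). Among the widths of the other genes, the median ribosomal gene stood at percentile 80.2 (C4-2BER) or 82.1 (C4-2B), and among their folds at 43.4 and 41.4. For H3K18ac the excess was smaller, 2995.5 against 2446 bp in C4-2BER (1.22 times) and 2573.5 against 2269 bp in C4-2B (1.13 times). The mitochondrial ribosomal protein genes had H3K27ac medians of 3304 and 2592 bp, proteasome subunits 3083 and 2226 bp, and complex I genes 3308 and 2777 bp.

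**Figure D2:**
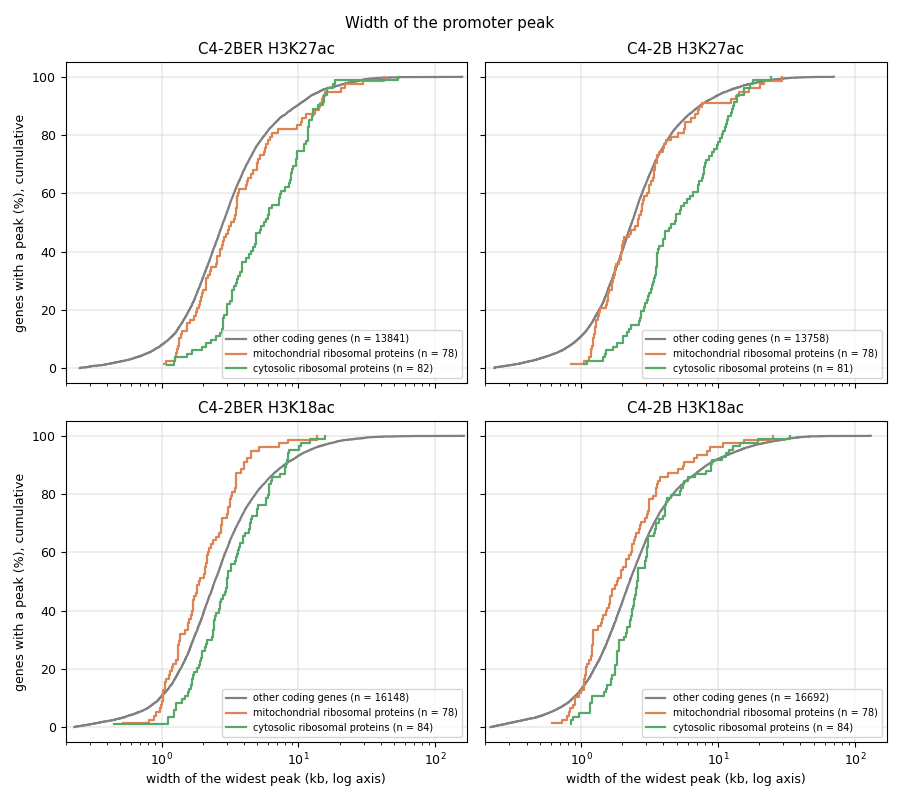
Cumulative share of genes (percent) by width of the widest peak within 1000 bp of the TSS (kb, log axis) in each of the 4 lists, for cytosolic ribosomal protein genes (green), mitochondrial ribosomal protein genes (orange) and other coding genes (grey). The green line lies to the right of the grey line for H3K27ac (medians of 5716 against 2821 bp in C4-2BER) and closer to it for H3K18ac.

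Ribosomal protein genes are short, with a median length of 5441 bp, so the width was also set beside genes of similar length. Among 3239 other genes between the quartiles of ribosomal gene length (3664.75 to 10493.25 bp), the median H3K27ac width was 3800.5 bp in C4-2BER and 3058 bp in C4-2B, wider than in all other genes and narrower than in the ribosomal genes. For H3K18ac the genes of similar length had 2860 bp in C4-2BER, near the 2995.5 bp of the ribosomal genes, and 3011 bp in C4-2B, above their 2573.5 bp, so the small H3K18ac excess over all other genes turned around there. Starts of neighbouring genes under the same peak also moved with width. Ribosomal peaks with no other TSS beneath had a median of 3535 bp in C4-2BER (n = 33) and 3494 bp in C4-2B (n = 34), against 2371 and 2018 bp for other genes of that kind. With 1 other TSS the medians were 6644.5 and 5651.5 bp (other genes 3211 and 2671 bp), and with 2 or more 12016 and 10806 bp (8752 and 6791 bp). The excess over all other genes was present at each number of neighbouring starts. That number itself depends on the width of the peak, and the other genes here were not matched for length. The part of neighbouring starts in the width was therefore not tested.

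The extra width lay mainly downstream of the start. H3K27ac reached a median of 1802.5 bp upstream and 3424.5 bp downstream in C4-2BER and 1447 and 3004 bp in C4-2B, whereas the other genes had 1211 and 1463 bp in C4-2BER and 1003 and 1227 bp in C4-2B. The downstream arm was the longer at 65 of 82 ribosomal genes in C4-2BER and 63 of 81 in C4-2B (79.3% and 77.8%, other genes 61.9% and 62.7%). Proteasome subunits had 78.4% and 67.6%, so the share was close to theirs in C4-2BER. At 5000 bp downstream, 53.6% of the ribosomal genes in C4-2BER and 42.9% in C4-2B lay under an H3K27ac peak, be it the promoter peak or a separate one, against 14.6% and 12.6% of other genes, and at 5000 bp upstream 22.6% and 19.0% against 12.3% and 10.2%. The peak covered the whole gene at 30 of 84 genes in C4-2BER and at 23 of C4-2B (35.7% and 27.4%), against 4.06% and 3.26% of the other coding genes and 10.1% and 7.63% of those of similar length. A median of 64.1% of the gene body was covered in C4-2BER and 52.8% in C4-2B. H3K18ac covered the whole gene at 15 genes in C4-2BER (17.9%, genes of similar length 5.40%) and at 9 in C4-2B (10.7%, genes of similar length 11.0%).

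**Figure D3:**
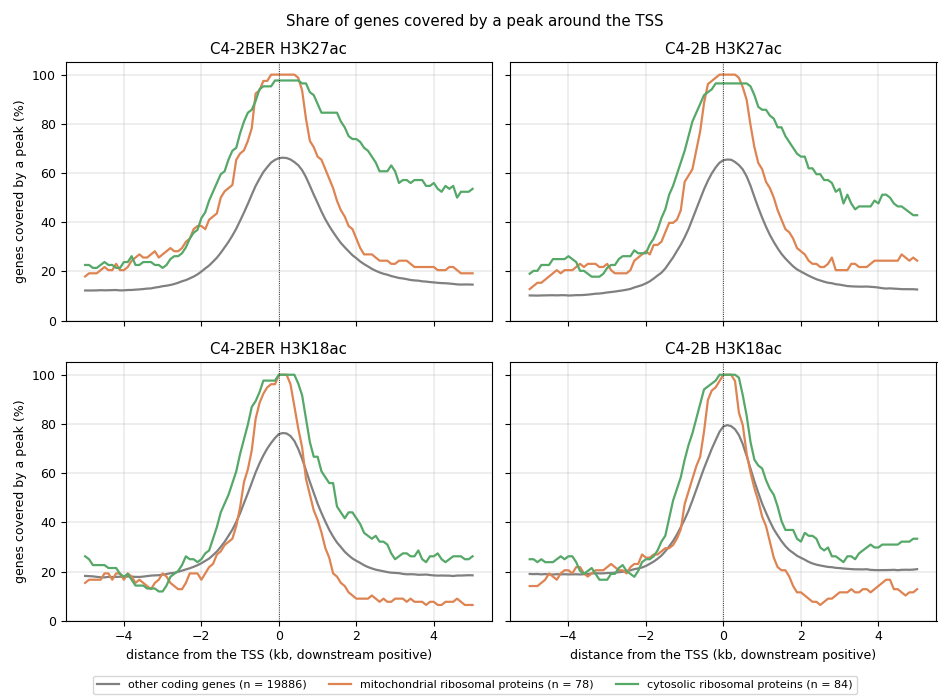
Percent of genes under any peak, the promoter peak or a separate one, at each distance from the TSS (kb, downstream positive, steps of 100 bp), for cytosolic ribosomal protein genes (green), mitochondrial ribosomal protein genes (orange) and other coding genes (grey) in the 4 lists. H3K27ac of the green line falls off slowly downstream, to 53.6% at 5000 bp in C4-2BER, and more steeply upstream, to 22.6%.

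The downstream end of the widest H3K27ac peak lay in an intron of the canonical transcript at 43 genes in C4-2BER and 48 in C4-2B, in an exon at 4 and 6, and past the end of the transcript at 35 and 27. For H3K18ac it lay in an intron at 63 and 60 genes. RPS19 showed the contrast between the marks within a gene of 6 exons. Its H3K27ac peak in C4-2BER ran from the promoter past the end of the transcript (chr19:41858530-41873542, 15013 bp) and in C4-2B into intron 5 (11716 bp). Its H3K18ac peaks were 1574 and 1559 bp and ended in intron 3.

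H3K27ac was the wider mark at 79 of 82 ribosomal genes in C4-2BER and at 70 of 81 in C4-2B (96.3% and 86.4%), against 61.6% and 55.2% of the other coding genes with both marks. It was at least 2 times as wide at 29 and 30 of them (35.4% and 37.0%, other genes 11.4% and 7.48%). The mitochondrial ribosomal protein genes had similar shares with the wider H3K27ac, 94.9% and 80.8%. Their shares with H3K27ac at least 2 times as wide were 29.5% and 14.1%, and those of proteasome subunits 29.7% and 16.2%. These came near the ribosomal share in C4-2BER and not in C4-2B. RPS27, a small-subunit protein with a zinc finger, was an exception, with H3K27ac of 1971 and 1520 bp and H3K18ac of 6053 and 6000 bp in C4-2BER and C4-2B.

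**Figure D4:**
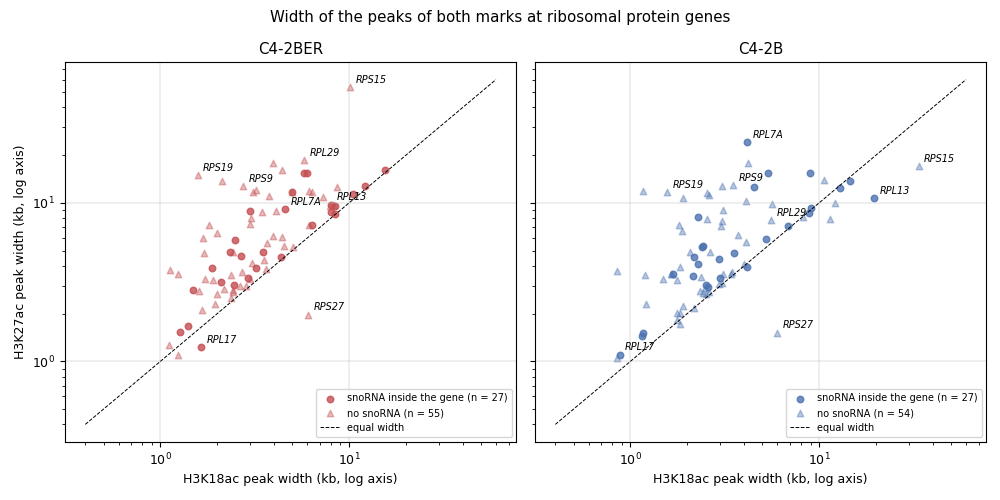
Width of the H3K27ac peak against that of the H3K18ac peak (kb, both log axes) at each ribosomal protein gene with both marks, 82 in C4-2BER (left) and 81 in C4-2B (right). Circles are genes that hold a snoRNA and triangles those that do not. Most points lie above the dashed line of equal width, 79 of 82 in C4-2BER, and RPS27 lies below it.

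The widest H3K27ac domains covered neighbouring genes. RPS15, a small-subunit protein gene on chromosome 19, lay under 53725 bp in C4-2BER (chr19:1392775-1446499), together with the starts of APC2, DAZAP1, GAMT and a pair of unnamed genes, and under 17135 bp in C4-2B. Its H3K18ac went the other way, 10130 bp in C4-2BER and 33662 bp in C4-2B. RPL7A, in the surfeit gene cluster, had 9083 bp in C4-2BER and 24286 bp in C4-2B (chr9:133341005-133365290), where the peak also covered SURF1 and SURF2. RPL29 had 18550 bp in C4-2BER and 7808 bp in C4-2B. In each line 2 of the 84 genes shared a single H3K27ac peak and are not separate observations of that mark. The narrowest peaks were those of RPL10L (1104 bp), RPL17 (1235 bp) and RPS4X (1261 bp) in C4-2BER, and of RPL34 (1054 bp), RPL17 (1104 bp) and RPS20 (1447 bp) in C4-2B. RPL17 combined one of the highest folds with one of the narrowest peaks.

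Peaks of high fold tended to be narrow within the family. Across genes, Spearman's rho between H3K27ac fold and width was -0.22 in C4-2BER (n = 82) and -0.37 in C4-2B (n = 81), and 0.24 and 0.23 in the other coding genes. The genes of a list share its libraries and background, the fold is itself an average over the width, and genes are not independent replicates. Hosts of snoRNAs (n = 27) had H3K27ac medians of 12.0-fold and 5829 bp in C4-2BER and 16.9-fold and 5272 bp in C4-2B, and the genes without had 11.3-fold and 5603 bp (n = 55) and 15.8-fold and 4025 bp (n = 54). For 31 genes that face another gene head to head the median widths were 5829 and 5358 bp.

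Between the cell lines the ribosomal protein genes had log2 ratios near those of all coding genes. The median log2 ratio of H3K27ac fold, C4-2BER to C4-2B, was -0.42 over 81 genes with a peak in both, and -0.51 over all coding genes with a peak in both (n = 13383). For H3K18ac it was -0.34 over 84 genes and -0.34 over all (n = 15836). Each list is scaled to its own background, so a ratio between lists also holds any difference in background. Values relative to the median of all genes are therefore given beside some of the ratios. On that scale the ribosomal median was 0.09 for H3K27ac and -0.003 for H3K18ac. In C4-2BER, the H3K27ac fold was above that of C4-2B at 11 of 81 genes (13.6%, other coding genes 11.7%) and lower at 70. H3K18ac was higher at 15 of 84 (17.9%, other coding genes 14.1%) and lower at 69. Both marks were lower at 62 of 81 ribosomal genes and at 10836 of 13284 coding genes in all, and both higher at 7 and at 713. The interquartile range of the H3K27ac log2 ratio spanned 0.42 in the ribosomal genes and 0.50 in the other coding genes.

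A gene was called increased in C4-2BER with a peak there only or a fold ratio of at least 2, and decreased in the mirrored case. For H3K27ac, 1 of 84 ribosomal genes was increased, where 3.32% of all coding genes were, and 3 were decreased, where 8.04% were. For H3K18ac, 0 of 84 were increased, against a background of 2.09%, and 2 were decreased, against 6.14%. The increased gene was RPL10L, by its weak peak in C4-2BER only. With the ratios centred on the median of all coding genes, 0 ribosomal genes were decreased in H3K27ac and 1, RPL27, in H3K18ac, so the calls of RPS6, RPS14 and RPS19 below hold for the folds as deposited. These are descriptions of pooled lists without a test.

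RPS6, whose product is the small-subunit target of the S6 kinases, was decreased in both marks. Its H3K27ac fold was 9.88 over 5332 bp in C4-2BER (chr9:19377789-19383120) and 24.4 over 3303 bp in C4-2B (chr9:19377874-19381176), a log2 ratio of -1.30. Its H3K18ac fold was 5.03 over 4521 bp and 11.2 over 1481 bp, a log2 ratio of -1.15. In both marks the peak of C4-2BER was wider and had the lower fold. Both H3K27ac peaks ended downstream in intron 4, while the upstream end lay farther out in C4-2BER. RPS6 was the 1 ribosomal gene of 84 decreased in both marks (1.19%), the same share as over all coding genes (238 genes, 1.19%). Relative to the median of all genes it had -0.79 (H3K27ac) and -0.81 (H3K18ac).

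RPS14, whose loss on chromosome 5q is known from myelodysplastic syndrome, had H3K27ac of 8.95 over 6452 bp in C4-2BER and 19.0 over 3961 bp in C4-2B (log2 ratio -1.09). Its H3K18ac changed less, 7.20 and 10.6 (-0.55). RPS19 had H3K27ac of 8.35 over 15013 bp and 17.2 over 11716 bp (-1.04), with H3K18ac at -0.39. Relative to the median of all genes, RPS14 stood at -0.58 and RPS19 at -0.53 for H3K27ac, where both calls are lost. Just short of a ratio of 2 as deposited were RPL15 (15.2 and 29.4, log2 ratio -0.96), RPS7 (12.4 and 23.7, -0.94) and RPS27L (14.9 and 28.2, -0.92). In RPS6, RPS14 and RPS19 the lower fold came with a wider peak in C4-2BER, and the part of the width in the lower average was not tested. Over the 81 genes, Spearman's rho between the log2 ratios of fold and of width was -0.18.

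RPL27, a large-subunit protein gene, had the largest fall of H3K18ac in the family. The fold was 3.69 over 6353 bp in C4-2BER (chr17:42995853-43002205) and 10.9 over 1160 bp in C4-2B (chr17:42998273-42999432), a log2 ratio of -1.56. In C4-2B the peak ended in intron 2, and in C4-2BER it reached farther on both sides, into intron 3. Its H3K27ac, broad in both lines at 11678 and 11841 bp, had a log2 ratio of -0.50, close to the median of all genes. RPL10A (5.74 over 8307 bp and 11.3 over 2593 bp, -0.98) had a wider peak in C4-2BER, whereas RPS7 (6.42 over 1593 bp and 11.9 over 2495 bp, -0.88) had a narrower one. Both were just short of a ratio of 2 as deposited. Relative to the median of all genes, H3K18ac stood at -1.22 for RPL27, -0.64 for RPL10A and -0.55 for RPS7.

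The largest rises were small on the folds as deposited. RPL24 had H3K27ac of 11.2 against 8.09 in C4-2B (log2 ratio 0.46) over peaks of 4930 and 4895 bp. RPL36A, a gene on chromosome X head to head with BTK, had 10.3 and 7.84 (0.40), RPS15 12.6 and 10.1 (0.32), and RPS27A, which encodes ubiquitin fused to a ribosomal protein, 15.7 and 13.9 (0.18). For H3K18ac, RPL36 had 6.60 and 5.18 (0.35), over 4411 bp in C4-2BER and 12076 bp in C4-2B. RPS27A (7.05 and 5.98, 0.24) and RPL23A (6.05 and 5.19, 0.22) followed. RPS27A was thus among the 4 largest rises of both marks. Relative to the median of all genes the H3K27ac rises were larger, 0.97 (RPL24), 0.91 (RPL36A), 0.83 (RPS15) and 0.69 (RPS27A), all short of a ratio of 2. On that scale the largest H3K27ac fall, that of RPS6, was -0.79. For H3K18ac, RPL36 stood at 0.69, RPS27A at 0.58 and RPL23A at 0.56, and the largest fall, that of RPL27, at -1.22.

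**Figure D5:**
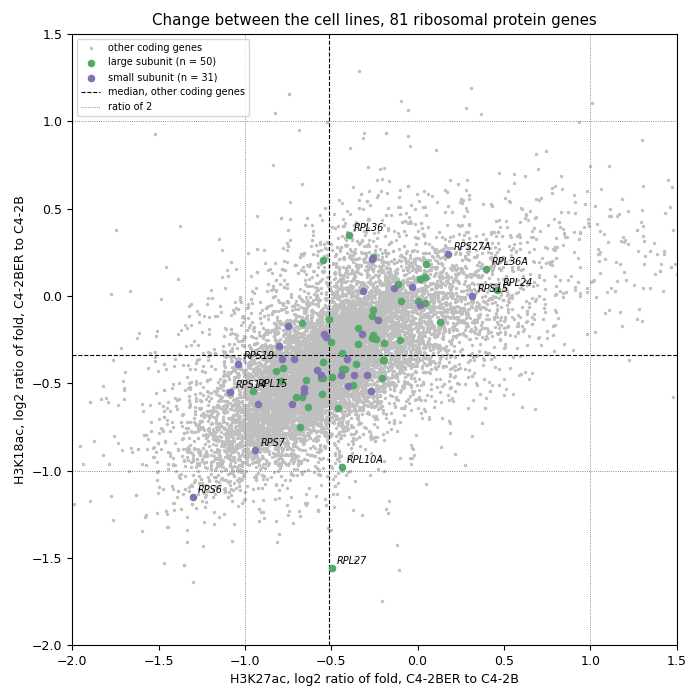
Log2 ratio of fold enrichment, C4-2BER to C4-2B, of H3K27ac (x axis) and H3K18ac (y axis) at 81 ribosomal protein genes with both marks in both lines (50 large subunit green, 31 small subunit purple) over the other coding genes (grey, 50 of them outside the axes), with dashed lines at the medians of the other coding genes and dotted lines at a ratio of 2. The ribosomal genes lie within the grey cloud, RPS6 is past a ratio of 2 on both axes and RPL27 on the H3K18ac axis.

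The marks changed together across genes, with Spearman's rho between the log2 ratios of H3K27ac and H3K18ac of 0.67 in the ribosomal genes (n = 81) and 0.65 in the other coding genes (n = 13203). The ratios come from separate ChIP libraries of the same cell lines and share their input libraries. Widths differed less between lines, with rho of 0.91 between the H3K27ac widths of the lines and 0.73 between the folds. H3K27ac was wider in C4-2BER at 54 of 81 ribosomal genes (66.7%), against 77.2% of the other coding genes, and H3K18ac at 49 of 84 (58.3%), against 59.0%. Small-subunit genes had a median H3K27ac log2 ratio of -0.53 and large-subunit genes of -0.39 (all coding genes -0.51). The 3 decreased genes were of the small subunit, 9.68% of its 31 genes and near the 8.04% of all coding genes. None of these calls was left with centred ratios. For H3K18ac, 1 gene of each subunit was decreased. The mitochondrial ribosomal protein genes had an H3K27ac median of -0.57, with 10 of 78 decreased (12.8%, all coding genes 8.04%) and 0 increased (all coding genes 3.32%), on the folds as deposited. Their H3K18ac went the other way in its calls, with 1 of 78 decreased (1.28%, all coding genes 6.14%) and a median of -0.43.

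Ribosomal proteins whose symbols fall outside the rule were read beside the family. FAU, a fusion of a ubiquitin-like protein and a small-subunit protein, had H3K27ac folds of 13.5 (C4-2BER) and 19.9 (C4-2B). RACK1, a scaffold on the small subunit, had 12.2 and 18.4. RPSA, the laminin receptor protein of the small subunit, was called decreased in H3K27ac, with a fold below the family's lower quartile in C4-2BER, 7.15 over 14331 bp and 14.8 over 2331 bp (log2 ratio -1.05, and -0.54 relative to the median of all genes, where the call is lost), while its H3K18ac was 6.31 and 5.68.

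Of 35 further genes of ribosome assembly and translation, 35 had H3K27ac and H3K18ac in both lines, none was increased in either mark, 3 were decreased in H3K27ac (8.57%, all coding genes 8.04%) and 1 in H3K18ac (2.86%, all coding genes 6.14%). The decreased genes were NOP2, an rRNA methyltransferase (9.39 and 23.0, log2 ratio -1.29), MYBBP1A, a nucleolar Myb-binding protein (8.97 and 20.7, -1.21), and EIF3F, a subunit of initiation factor 3 (8.02 and 17.7, -1.14). POLR1B, the second largest subunit of RNA polymerase I, was decreased in H3K18ac (4.54 and 10.7, -1.23). Relative to the median of all genes these stood at -0.78 (NOP2), -0.70 (MYBBP1A), -0.63 (EIF3F) and -0.89 (POLR1B), short of a ratio of 2. The medians of the 35 were -0.58 for H3K27ac and -0.42 for H3K18ac.

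The marks at cell type markers were read beside these values. All 8 luminal markers, KLK3 (H3K27ac fold 13.8 in C4-2BER, 20.3 in the parent) and HOXB13 (19.8 and 23.5) among them, had peaks of both marks in both lines. Of 8 neuroendocrine markers, SYP (5.67 in C4-2BER, 8.16 in the parent) and ENO2 (7.30 and 4.00) had H3K27ac in both lines, whereas CHGA, CHGB, INSM1, NCAM1 and SCG3 had none in either. H3K18ac, in its longer lists, was at 7 of these markers in C4-2BER and at all 8 in C4-2B. Of the leukocyte markers, PTPRC and CD3E had no peak in any list, and of the stromal markers DCN had none while COL1A1 and VIM had both marks.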

How the data were processed

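Reads were aligned by the authors with bowtie2 (GRCh38) and cleared of duplicates, poor alignments and blacklisted regions. Replicates were then pooled and broad peaks called with macs2. The submitters' processing notes list Bowtie2 2.2.3, Trimmomatic 0.33 and bcl2fastq 2.17. The study's methods name another bowtie2 version and describe fixation differently from the labels. The deposited fold enrichment of a peak is a ratio over local background, averaged over the peak and scaled within its own list. Of the deposited −log10 p-value and q-value of each peak, the q-value was used, for a stricter threshold, and the p-value was not.

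For each gene, peaks overlapping 1000 bp on each side of the Ensembl canonical TSS in GENCODE release 44 were taken, with the highest fold and the width of the widest. The lists hold no read counts, so depth is unknown and no test was made. The members and gene lists were chosen with earlier results of these data known, and genes of similar length were added after values were seen. Genes were named by a rule: all paralogs, ribosomal proteins with other symbols, the 3 highest and lowest folds per list, the 3 widest and narrowest H3K27ac peaks, the 4 largest and smallest log2 ratios per mark, RPL5, RPL11, RPS19, genes near or past a ratio of 2, and pathway genes called changed. RPS27, KLK3 and HOXB13 were picked after their values were seen. Results for some genes are not reported here. Peak lookup and calls were tested on simulated data. The analysis ran in Python 3.11.15 (numpy 2.4.6, pandas 2.3.3, matplotlib 3.10.9).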

Additional observations from a re-analysis of the deposited data

How the results depend on the processing

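Results were recomputed under 13 settings, giving 152 values, of which 137 stayed within the limits set (a count within 1.5 times), 11 moved and 4 reversed. The H3K27ac median log2 ratio of the ribosomal genes was -0.42 as deposited and reversed to 0.089 centred on all coding genes, to 0.081 rescaled by a robust line and to 1.00 percentile points as a difference of ranks within each list. The H3K18ac median, -0.34 as deposited, was -0.00296 when centred and reversed to 0.049 with the robust line. Genes with decreased H3K27ac numbered 3, and 0 when centred, 0 with the robust line, 22 at a ratio of at least 1.5 and 0 by presence of a peak alone. Genes with decreased H3K18ac numbered 2, and 1 when centred, 1 with the robust line (RPL27 in each), 9 at a ratio of 1.5, 3 with peaks of a fold of at least 4 and 0 by presence. The calls of RPS6, RPS14 and RPS19 for H3K27ac, and of RPS6 for H3K18ac, thus rested on the scaling of the lists. The share of all coding genes at a ratio of 1.5 was not computed. The lower quartile of the H3K27ac log2 ratio was -0.65 in the ribosomal genes and -0.75 in the other coding genes. For H3K18ac it was -0.47 and -0.55. The counts of 22 and 9 are therefore not read as a fall particular to the family. Genes with increased H3K27ac numbered 1, 2 with 2000 bp on each side of the TSS and 0 without the paralogs. No paired analysis was possible because the authors pooled the replicates into single lists. Leaving out a replicate could not be done for the same reason. With unknown depth, a gene without a peak may still carry the mark below the caller's threshold.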
